A study of Rattus norvegicus with 20 samples.

Results

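The cytosolic heat shock chaperones are the protein-folding machinery of the cytosol, and 10 of their genes were followed here in the rat supraoptic nucleus (SON): Hspa1a, Hspa1b, Hspa4, Hspa8, Hsp90aa1, Hsp90ab1, Hsph1, Dnaja1, Dnajb1 and Hspb1. They were chosen by name as members of the family, out of 32402 genes in the tables, with earlier results of these data known. Of these 10 genes, 9 had a row by symbol and all 9 passed the filter on low values (a mean normalised count of at least 10). Hspa1b had no row under that symbol and is not analysed here by name, while Hspa1a stood on a pair of rows, so that 1 of these may be Hspa1b in another annotation release.

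The study compared poly(A) RNA from SON punches of male Wistar Han rats. There were 5 libraries in each of 4 groups. Adult rats were 3 months old and aged rats 18 months old. At each age 1 group was euhydrated (EH), with free access to water, and the other was dehydrated (DH), for 2 days according to the sample labels, while the study's methods give a longer period. A punch holds magnocellular neurones, glia, vessels and some of the neighbouring brain, so in these bulk samples fewer cells of a type and less RNA per cell cannot be told apart. According to the study's methods, animals of both ages were handled in parallel.

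Hsp70-type chaperones bind stretches of unfolded protein and release them on ATP hydrolysis. J-domain proteins (Hsp40) bring them their clients and start that hydrolysis, and Hsp110 proteins exchange the nucleotide so that the cycle can begin again. Hsp90 takes over clients such as steroid receptors and kinases at a late stage of folding, and small heat shock proteins hold unfolded proteins until Hsp70 can act. Some members are made constantly (Hspa8, Hsp90ab1) and others are strongly induced when heat shock factor 1 (Hsf1) is freed by misfolded protein (Hspa1a, Hspa1b, Hsph1, Dnajb1, Hspb1). The SON houses the neurones that make vasopressin and oxytocin. Dehydration raises the demand on these cells for both prohormones, which are folded in the endoplasmic reticulum (ER) and not in the cytosol.

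Hsf1 binds alternating repeats of the letters GAA and TTC, and the promoter windows of the members were searched for them as a description, without a test. A window ran from 250 bases before to 50 bases after the gene start in the RefSeq tables (build GRCr8), and 8 of the 10 members had one, all except Hsp90aa1 and Hspa1b. The letters searched were the cores GAANNTTC and TTCNNGAA, where N is any base, and the runs of 3 alternating units GAANNTTCNNGAA and TTCNNGAANNTTC. Each core reads the same on both strands, each run reads as the other on the opposite strand, and a run holds 2 overlapping cores. The windows of Hspa8, Dnaja1 and Hspa4 are printed because these genes were higher in dehydrated adult rats, and that of Hsph1 because it holds a run and its gene did not pass the test. Each is shown 5′ to 3′ on the strand of its gene, up to 30 bases after the start, with the cores in capitals.

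Hspa8 (chr8:50080264-50080543, plus strand): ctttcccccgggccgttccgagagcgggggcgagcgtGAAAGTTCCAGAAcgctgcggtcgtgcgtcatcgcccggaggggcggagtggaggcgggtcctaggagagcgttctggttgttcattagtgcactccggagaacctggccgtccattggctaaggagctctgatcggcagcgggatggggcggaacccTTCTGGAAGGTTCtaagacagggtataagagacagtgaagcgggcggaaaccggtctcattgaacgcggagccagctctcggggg
Dnaja1 (chr5:60638154-60638433, plus strand): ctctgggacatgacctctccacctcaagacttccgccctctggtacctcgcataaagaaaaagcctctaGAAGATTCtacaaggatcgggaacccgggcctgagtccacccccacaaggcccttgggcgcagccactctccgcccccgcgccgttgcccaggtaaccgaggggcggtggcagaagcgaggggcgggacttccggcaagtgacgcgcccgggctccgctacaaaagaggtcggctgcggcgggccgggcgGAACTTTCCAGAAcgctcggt
Hspa4 (chr10:37949806-37950085, minus strand): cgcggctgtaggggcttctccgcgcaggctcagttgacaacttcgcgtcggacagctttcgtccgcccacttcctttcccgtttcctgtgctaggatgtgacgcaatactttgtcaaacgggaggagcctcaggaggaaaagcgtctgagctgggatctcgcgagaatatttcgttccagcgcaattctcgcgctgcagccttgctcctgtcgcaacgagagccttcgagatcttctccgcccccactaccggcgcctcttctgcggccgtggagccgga
Hsph1 (chr12:10427118-10427397, plus strand): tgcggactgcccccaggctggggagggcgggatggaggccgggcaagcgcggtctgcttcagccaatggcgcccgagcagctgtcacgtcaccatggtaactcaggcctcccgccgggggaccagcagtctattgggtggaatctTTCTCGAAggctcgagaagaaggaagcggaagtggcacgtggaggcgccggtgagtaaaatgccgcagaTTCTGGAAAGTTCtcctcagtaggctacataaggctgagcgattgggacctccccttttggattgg

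A run of 3 units stood in 3 of the 8 windows, those of Hspa8, Hsph1 and Dnaja1. In Hspa8 there were 2 runs, GAAAGTTCCAGAA from 213 to 201 bases before the start and TTCTGGAAGGTTC from 55 to 43 bases before it. Hsph1 held TTCTGGAAAGTTC from 36 to 24 bases before its start. The run of Dnaja1, GAACTTTCCAGAA, lay from base 10 to base 22 of the transcribed part. At least 1 core was in 5 of the 8 windows (62.5%), since Dnajb1 and Hspb1 each held 2 cores without a run, and Hspa1a, Hspa4 and Hsp90ab1 held none. A window without a core says nothing of sites outside it. The Hspa1a window was taken by symbol, and whether it belongs to the gene of the row analysed was not settled. Of all 33469 windows in the table, 15.9% held a core and 0.798% held a run, with GAANNTTC in 8.59% and TTCNNGAA in 8.77%. These are matches of letters and not measured binding sites.

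The tables hold normalised counts, which are reads divided by a size factor of the library, and there is a separate table for each comparison. The totals per library lay between 25931931 and 28689164. Because each table was scaled separately, values of 1 rat differ slightly between tables, and counts of different genes are not compared because they depend on transcript length. The LFC (log2 fold change) is the difference of group means of log2(normalised count + 1) with its 95% interval from limma, and a gene was called where its Benjamini-Hochberg adjusted p over all genes tested was under 0.05. Rats are named by the number in their label. Vasopressin (Avp) and oxytocin (Oxt) were abundant in every library, with lowest values of 113731 and 71073 normalised counts (these hormones define the magnocellular neurones of the SON). Slc17a7, a marker of cortical and amygdalar excitatory neurones, was present too and varied within the adult EH group from 303.8 to 2391 normalised counts. Among the libraries of the adult DH group, rat 2 had the highest value in its group for 9 of the 9 members, so the adult DH value of each member is also given without it.

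In adult rats, dehydration raised 3 of the 9 members, all modestly: Hspa4, Hspa8 and Dnaja1 rose by 11.03% to 12.3% and no member fell. Of all 15280 genes tested, 12.7% were called in either direction and 7.67% were called as higher in DH. Among all calls 60.6% were higher in DH, or 43.4% where every library was scaled to the same total, and the 3 members were still called under that scaling. The other 6 members had LFC between -0.03 and 0.35. The median size of the LFC was 0.0301 over the members and 0.0917 over all genes. The values of these 3 genes did not overlap between EH and DH, nor did those of 10.9% of all genes. Of 10 magnocellular markers 4 were also higher in adult DH and 0 lower, with a median LFC of 0.13 over the list. Their summed level, most of it Avp and Oxt, was 227410 to 316250 normalised counts in EH and 330040 to 437530 in DH, while Avp alone overlapped between the groups (113731 to 195535 against 190584 to 255875). The part of these neurones in the chaperone results was not tested.

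**Figure D1:**
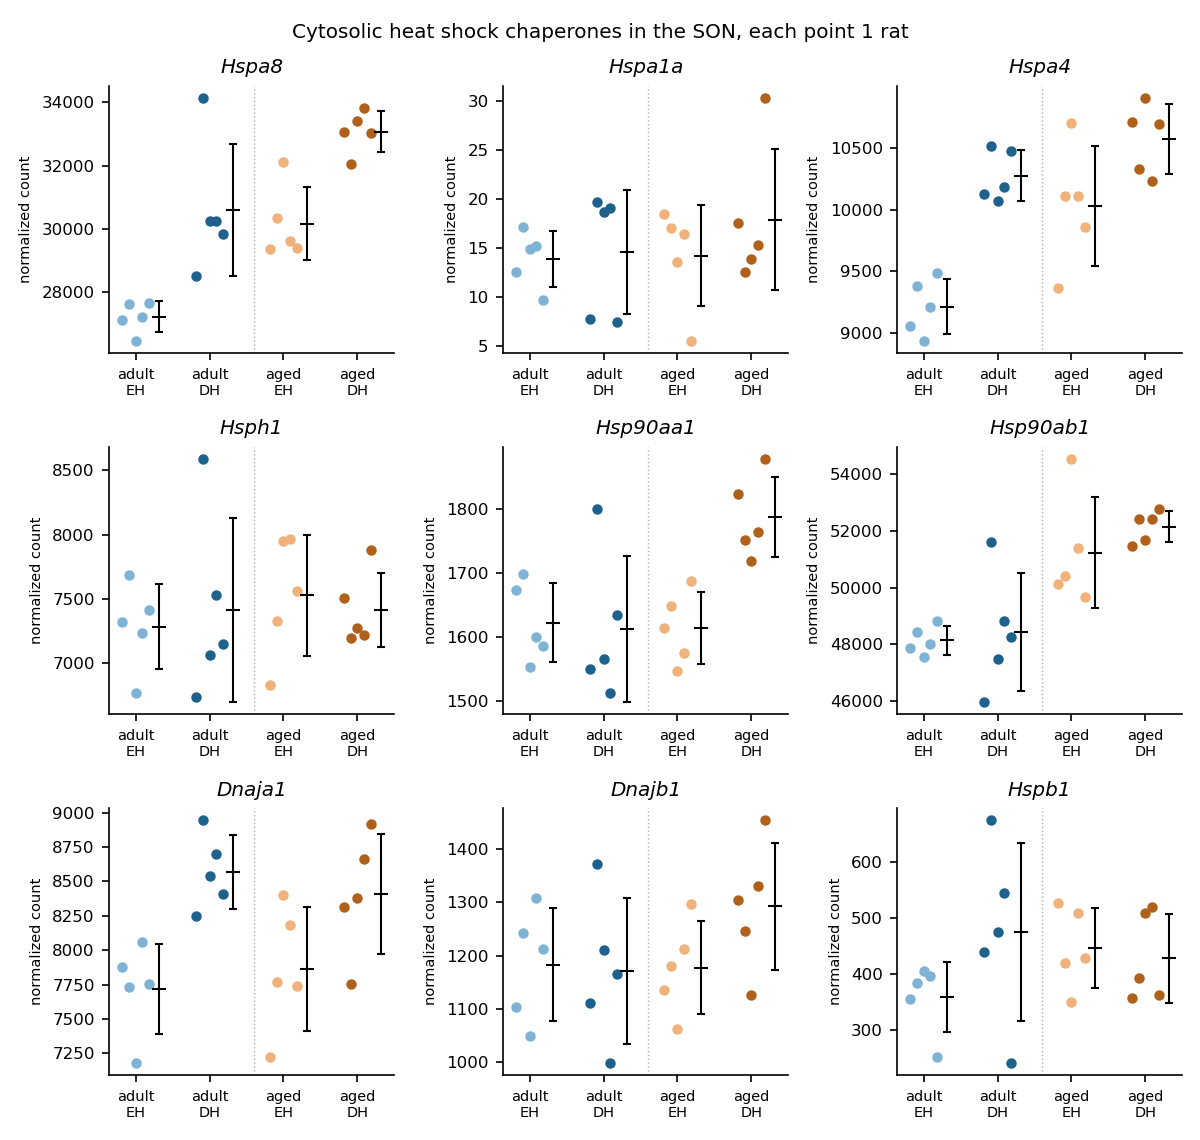
Normalised counts of the 9 measured members, 1 panel per gene, in adult EH, adult DH, aged EH and aged DH rats. Each point is 1 rat, the short line and bars beside each group are its mean ± SD (n = 5), the vertical axes do not start at 0, and the dotted line parts the adult from the aged table, which were scaled separately. The DH points of Hspa8, Hspa4 and Dnaja1 lie above all EH points in the adult panels, and those of Hsp90aa1 do so in the aged panels.

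Hspa8 encodes Hsc70, the constantly expressed cytosolic Hsp70 that also uncoats clathrin vesicles. Adult EH rats 1, 2, 4, 5 and 6 had 27117, 27625, 26442, 27192 and 27647 normalised counts. Adult DH rats 1 to 5 had 28506, 34136, 30237, 30240 and 29828. The lowest DH rat was above the highest EH rat, and DH rat 2 stood well above the other 4. The LFC was 0.17 (95% interval 0.08 to 0.25, limma adjusted p = 0.0170), which is 12.3% (5.61% to 19.3%). Without DH rat 2 the LFC was 0.13 (limma adjusted p = 0.0157).

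Hspa4 encodes Apg-2, an Hsp110-type nucleotide exchange factor of Hsp70. Adult EH rats had 9058, 9379, 8938, 9210 and 9484 normalised counts. Adult DH rats had 10126, 10518, 10067, 10181 and 10470. The groups were apart by more than the whole range within either of them. The LFC was 0.16 (0.10 to 0.21, limma adjusted p = 0.00162), or 11.5%, and its residual SD of 0.0322 on the log2 scale was lower than that of all but 1.82% of the genes tested. Without DH rat 2 it was 0.15 (limma adjusted p = 0.00507).

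Dnaja1 encodes a J-domain partner of Hsc70. Adult EH rats had 7875, 7729, 7179, 8059 and 7754 normalised counts, and adult DH rats had 8246, 8947, 8540, 8701 and 8406. All DH rats were above all EH rats, and EH rat 4 was the lowest of the 10. The LFC was 0.15 (0.08 to 0.22, limma adjusted p = 0.0110), or 11.03%. Without DH rat 2 it was 0.14 (limma adjusted p = 0.0278).

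The inducible members did not pass the test in adult rats. Hsph1, the heat-inducible Hsp110, had an LFC of 0.02 (-0.10 to 0.14, limma adjusted p = 0.853). Its EH rats had 7315, 7685, 6767, 7234 and 7414 normalised counts and its DH rats 6730, 8588, 7061, 7532 and 7149. DH rat 2 was the highest of all 10 and DH rat 1 the lowest, and without rat 2 the LFC had the other sign, at -0.03. Dnajb1, the J-domain protein that teams with inducible Hsp70, had an LFC of -0.02 (-0.19 to 0.15), between 999 counts in DH rat 4 and 1372 in DH rat 2, and of -0.08 without rat 2. The upper ends of these intervals correspond to a rise of 10.4% for Hsph1 and of 11.1% for Dnajb1. Under scaling to the same total the LFC of Hsph1 was -0.005.

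Neither cytosolic Hsp90 gene passed the test in adult rats. Hsp90ab1, the constantly expressed form, had 48141 ± 501 normalised counts (SD, n = 5) in EH and 48430 ± 2067 in DH, with an LFC of 0.01 (-0.06 to 0.08), which was -0.02 under scaling to the same total and also -0.02 without DH rat 2. Hsp90aa1, the stress-responsive form, had an LFC of -0.01 (-0.11 to 0.09), or -0.05 without DH rat 2. Its DH rats spread from 1512 to 1800, with rat 2 at the top, around EH values of 1553 to 1699.

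Hspb1 encodes Hsp27, a small heat shock protein found in neurones, glia and vessel walls. Its EH rats had 355.1, 383.8, 405.3, 397.0 and 250.9 normalised counts and its DH rats 440.2, 675.5, 474.7, 545.5 and 240.8. Of the 5 DH rats 4 were above every EH rat, and DH rat 5 was below every EH rat. The LFC was 0.35 with a wide interval (-0.12 to 0.82, limma adjusted p = 0.335). It was 0.58 without DH rat 5 (limma adjusted p = 0.0275), so this single rat decided the call, and 0.20 without DH rat 2 (limma adjusted p = 0.590).

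Hspa1a encodes the inducible Hsp70 itself, and the row used for it had few counts. The symbol stood on 2 rows of the tables, of which ENSRNOG00000045654 was at 0 in every library and ENSRNOG00000050647 gave the values used. Reads of this gene can be split with its near-identical copy, so its values are uncertain and few counts cannot be read as low expression. Whether the row used is Hspa1a or Hspa1b was not settled. Adult EH rats had 12.5, 17.1, 14.8, 15.2 and 9.65 normalised counts and adult DH rats 7.74, 19.7, 18.6, 19.1 and 7.46. The DH rats lay on either side of the EH rats. The LFC was -0.03 (-0.71 to 0.65), while the mean count was 13.9 in EH and 14.5 in DH, and the interval runs from 38.9% lower to 56.9% higher, so a smaller change was not detectable at this depth. Without DH rat 2 the LFC was -0.16.

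In aged rats, dehydration raised 2 of the 9 members, Hspa8 and Hsp90aa1, and no member fell. Of all 15346 genes tested 7.29% were called, and 4.05% were called as higher in DH. The groups of 1 member, Hsp90aa1, did not overlap, against 7.05% of all genes. The median size of the LFC was 0.097 over the members and 0.0857 over all genes. Leaving out any 1 of the 10 rats left 0 or 1 member called.

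Hspa8 had 29352, 30338, 32099, 29611 and 29375 normalised counts in aged EH rats 1, 2, 4, 5 and 6, and 33052, 32056, 33422, 33813 and 33029 in aged DH rats 1, 2, 3, 5 and 6. EH rat 4 was above DH rat 2, and otherwise the groups were apart. The LFC was 0.13 (0.06 to 0.21, limma adjusted p = 0.0326), or 9.73%. The call was lost without EH rat 1, 2, 5 or 6 and without DH rat 1, 3 or 5, where the adjusted p lay between 0.0560 and 0.0875 with an LFC of at least 0.12. It was also lost with libraries centred on their median (adjusted p = 0.0595).

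Hsp90aa1 had 1614, 1648, 1547, 1575 and 1687 normalised counts in aged EH rats and 1823, 1751, 1719, 1764 and 1877 in aged DH rats. Every DH rat was above every EH rat. The LFC was 0.15 (0.06 to 0.23, limma adjusted p = 0.0346), or 10.7%. The call was lost without EH rat 1, 4 or 5 and without DH rat 1, 2, 5 or 6, with an adjusted p of 0.0535 to 0.0898 and an LFC of at least 0.13. It was also lost with libraries scaled to the same total (adjusted p = 0.0720). The adult LFC of this gene was -0.01.

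The 2 other genes called in adult rats had LFC of the same sign in aged rats without passing the test. Hspa4 had an LFC of 0.08 (-0.0026 to 0.16, limma adjusted p = 0.25), with EH rats from 9367 to 10703 and DH rats from 10227 to 10901 normalised counts. Dnaja1 had an LFC of 0.10 (-0.0013 to 0.20, limma adjusted p = 0.241). Dnajb1 had an LFC of 0.13 (-0.01 to 0.27, limma adjusted p = 0.271), Hsp90ab1 0.03 (-0.05 to 0.10), Hsph1 -0.02 (-0.12 to 0.08) and Hspb1 -0.06 (-0.34 to 0.21). Hspa1a reached 30.2 normalised counts in aged DH rat 6, where the other 4 DH rats had 12.5 to 17.5 and EH rats 5.50 to 18.4, and its LFC was 0.34 (-0.37 to 1.05).

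Markers of several cell types moved beside these results in aged DH. Of 8 markers of cortical and amygdalar excitatory neurones 5 were lower in aged DH, and the list's summed level was 1090 to 1867 normalised counts in DH rats against 2065 to 4714 in EH rats. Slc17a7 fell by 1.92 on the log2 scale (limma adjusted p = 0.00224). In adult rats the sums were 1105 to 2799 in DH and 1176 to 3679 in EH. The summed blood list had medians of 10803 in DH against 17950 in EH in adult rats and 10736 against 17905 in aged rats, with 2 of 7 tested markers called lower in adult DH and 1 of 7 in aged DH. In aged DH 2 of 10 magnocellular markers were higher and 1 lower, 1 of 8 astrocyte markers was lower, 1 of 8 oligodendrocyte markers was higher and 0 of 8 microglial markers were called by limma. In adult DH 2 of 8 oligodendrocyte markers were lower and 0 of 8 astrocyte and 0 of 8 microglial markers were called. The part of any of these in the chaperone results was not tested.

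**Figure D2:**
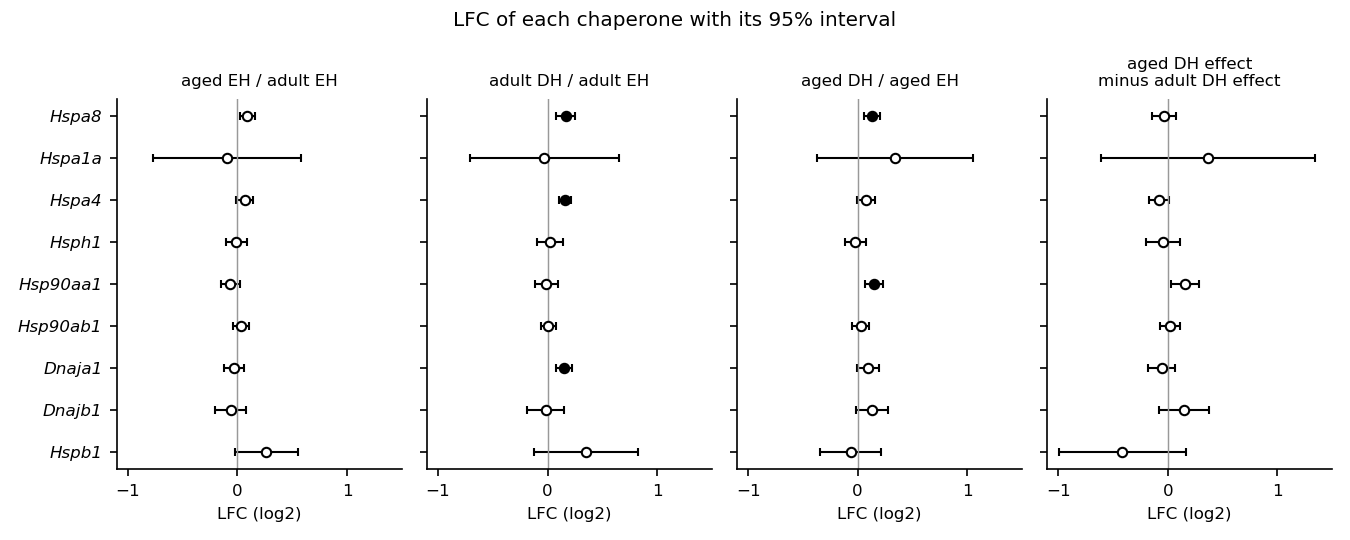
LFC of each member with its 95% interval, for ageing, adult DH, aged DH and the difference between the 2 DH effects (aged minus adult). Filled points are called at an adjusted p under 0.05 over all genes. Filled points are seen for Hspa8, Hspa4 and Dnaja1 in adult DH and for Hspa8 and Hsp90aa1 in aged DH, and the intervals of Hspa1a and Hspb1 are the widest.

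Whether dehydration acted differently at the 2 ages was tested directly as a difference of the 2 effects. No member was called, and 0% of the 15326 genes tested were, by limma. Without adjustment, 1522 genes (9.93%) had a p under 0.05, and 1 of them was a member. The gene was Hsp90aa1, whose DH effect was 0.16 larger in aged rats (0.03 to 0.28, limma adjusted p = 0.401). The difference was -0.08 for Hspa4 (-0.17 to 0.01), -0.05 for Dnaja1 (-0.18 to 0.07) and -0.03 for Hspa8 (-0.14 to 0.08). Hspa8 was thus called at both ages, Hspa4 and Dnaja1 in adult rats and Hsp90aa1 in aged rats, and none of the 4 was shown to differ between the ages in its response.

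Ageing itself called none of the 9 members by limma, where 5.99% of all 15369 genes were called, and 1 member had an unadjusted p under 0.05. Among all calls 45% were higher in aged rats, or 28.8% with libraries scaled to the same total. The member was Hspa8. Its aged EH rats had 29397, 30382, 32108, 29638 and 29563 normalised counts, and its adult EH rats had 28259, 28750, 27612, 28347 and 28820 in the same table. The groups did not overlap, as for 6.38% of all genes. The LFC was 0.09 (0.02 to 0.16, limma adjusted p = 0.123), or 6.51%.

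The other members had ageing LFC between -0.10 (Hspa1a) and 0.26 (Hspb1). Hspb1 had 527.1, 420.4, 349.7, 508.9 and 430.5 normalised counts in aged EH rats and 370.0, 399.4, 423.2, 413.9 and 261.5 in adult EH rats. The ranges overlapped, and the interval of its LFC was -0.02 to 0.55 (limma adjusted p = 0.298). Hsp90aa1 had an LFC of -0.06 (-0.15 to 0.02) and Hsph1 one of -0.01 (-0.11 to 0.09). Beside these values, 5 of 8 oligodendrocyte markers were lower in aged EH, with summed levels of 243080 to 294230 against 273150 to 398030 normalised counts. Also lower were 3 of 7 pericyte, fibroblast and meningeal, 2 of 6 endothelial and 2 of 8 astrocyte markers. Higher were 3 of 8 microglial, 3 of 10 magnocellular and 1 of 7 ependymal and choroid plexus markers. The summed levels of the microglial, endothelial and pericyte lists did not overlap between the ages. The part of any of these was not tested. Ageing shares its adult EH rats with adult DH and its aged EH rats with aged DH, so the values of a gene in these comparisons are not independent. Hspa8 stood at 0.09 in ageing, 0.17 in adult DH and 0.13 in aged DH, and Hsp90aa1 at -0.06, -0.01 and 0.15.

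The partners of these chaperones were examined as fixed lists. For comparison, limma called 5.99% of all genes tested in ageing, 12.7% in adult DH and 7.29% in aged DH. Hsf1 was not called in any comparison, with an LFC of 0.01 in ageing, 0.01 in adult DH (-0.09 to 0.11) and -0.07 in aged DH (-0.20 to 0.07). Of 5 genes of heat shock factors and their binding proteins, Hsf1 among them, Hsf4 alone was called, in ageing only, at 0.59 (limma adjusted p = 0.00382). Of 12 further J-domain genes 0 were called by limma in each of the 3 comparisons. Among 6 further Hsp70 and Hsp110 genes, Hspa4l, an Hsp110 relative of Hspa4, was higher in adult DH at 0.11 (limma adjusted p = 0.0483), a call that was lost without DH rat 2.

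Of 20 tested cochaperones of Hsp70 and Hsp90, 4 were higher and 1 was lower in adult DH. Fkbp5, the glucocorticoid-induced immunophilin that slows steroid receptors on Hsp90, rose by 0.59 (0.42 to 0.75, limma adjusted p = 0.000257), from 857.2 ± 41.9 to 1296 ± 172 normalised counts (SD, n = 5). Bag1, a nucleotide exchange factor of Hsp70, rose by 0.18 (limma adjusted p = 0.00997), and Ptges3, the Hsp90 cochaperone p23, by 0.14 (limma adjusted p = 0.0342). Ppid, an Hsp90-bound cyclophilin, rose by 0.11 (limma adjusted p = 0.0442), and Tomm34, which hands preproteins to mitochondria, fell by 0.15 (limma adjusted p = 0.0107). Without DH rat 2, 3 of the 20 were called, and Ptges3 (limma adjusted p = 0.0724) and Ppid (limma adjusted p = 0.0964) were not. In aged DH, Bag1 alone was called, at 0.21 (limma adjusted p = 0.0135), and Fkbp5 stood at 0.16 (-0.01 to 0.33). In ageing and in the difference between the ages 0 of the 20 were called by limma.

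Of the small heat shock proteins outside the 10 members, Hspb8 and Cryab were called. Hspb8, which works with Bag3 in clearing misfolded proteins, rose by 0.36 in adult DH (0.25 to 0.47, limma adjusted p = 0.00039) and by 0.26 in aged DH (0.16 to 0.37, limma adjusted p = 0.00616), without overlap of the groups at either age. Cryab, the lens and glial alphaB-crystallin, rose by 0.34 in aged DH (limma adjusted p = 0.0358) and was 0.26 higher in ageing (limma adjusted p = 0.0436), and it stood at 0.27 in adult DH (0.04 to 0.50, limma adjusted p = 0.124). These were 1 of 6 tested genes in adult DH, 2 of 6 in aged DH and 1 of 6 in ageing.

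A list of 21 further genes that heat shock is known to raise was also followed, with 20 tested. In adult DH 3 were higher (Hspb8, Hmox1 and Hspa4l) and Rgs2 was lower at -0.25. In aged DH 3 were higher (Hspb8, Hmox1 and Cryab). In ageing, Cryab was higher and Serpinh1, the collagen chaperone Hsp47, was lower at -0.50 (-0.63 to -0.36, limma adjusted p = 0.000552). Hmox1, the haem oxygenase that oxidative stress raises, stood at 0.39 in adult DH and 0.46 in aged DH.

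Genes of the mitochondrial and chaperonin folding machines were followed too. Hspa9, the mitochondrial Hsp70, rose by 0.14 in adult DH (limma adjusted p = 0.0236) and by 0.21 in aged DH (limma adjusted p = 0.00385), and Trap1, the mitochondrial Hsp90, fell by 0.15 in adult DH (limma adjusted p = 0.0189). These were the calls among 8 mitochondrial genes, and that of Hspa9 in adult DH was lost without rat 2 (limma adjusted p = 0.0566). Of 14 subunits of the TRiC/CCT chaperonin and its helper prefoldin, Pfdn5 was lower in adult DH at -0.18 (limma adjusted p = 0.0025) and Pfdn2 higher in aged DH at 0.20 (limma adjusted p = 0.00531).

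The ER has its own chaperones of the same families. Of 10 ER chaperones of the Hsp70, Hsp90 and Hsp40 kinds, 8 were higher and 0 lower in adult DH, 4 were higher in aged DH and 3 in ageing. The list's median LFC was 0.24, 0.15 and 0.10 respectively, and the shares called over all genes were 12.7%, 7.29% and 5.99%. In the difference between the ages 0 of the 10 ER genes were called by limma. Hspa5, the ER Hsp70 also called BiP, rose by 0.47 in adult DH (0.39 to 0.56, limma adjusted p = 4.88e-06), from 15698 ± 801 to 21744 ± 926 normalised counts, and by 0.38 in aged DH (0.27 to 0.50, limma adjusted p = 0.00125). Hsp90b1, the ER Hsp90, rose by 0.29 in adult DH (limma adjusted p = 2.81e-05) and by 0.16 in aged DH (limma adjusted p = 0.0353). Their cytosolic relatives Hspa8 and Hsp90ab1 stood at 0.17 and 0.01 in adult DH. The J-domain protein Dnajc3 rose by 0.37 in adult DH (limma adjusted p = 0.00306) and by 0.29 in aged DH (limma adjusted p = 0.0196), and Dnajb9 was 0.32 higher in ageing (limma adjusted p = 0.0141). The members' median LFC was 0.02 in adult DH, 0.10 in aged DH and -0.01 in ageing. Without adult DH rat 2, 7 of the 10 ER genes were called. The difference between the 2 lists was not tested.

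**Figure D3:**
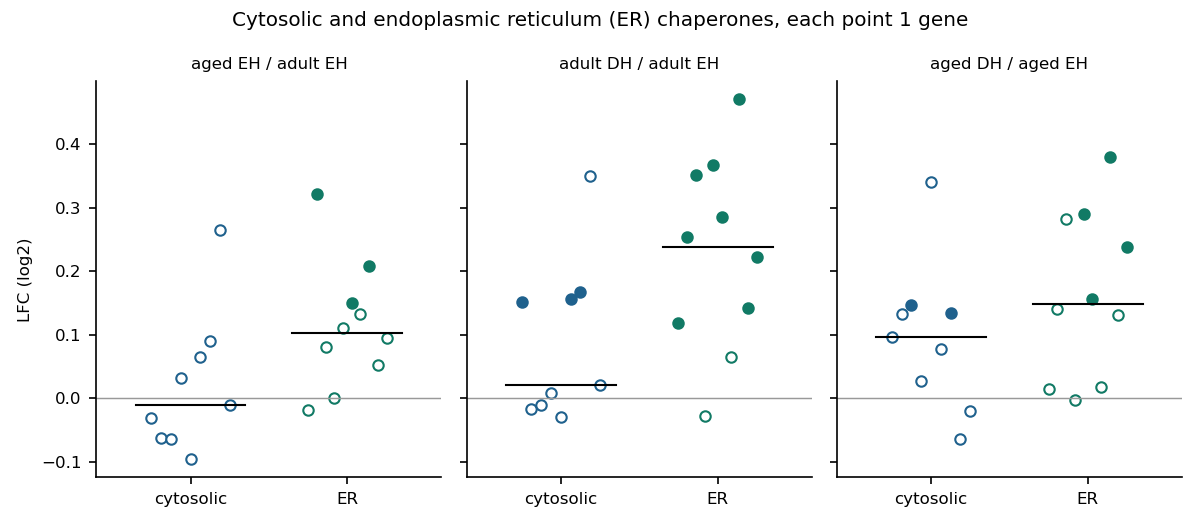
LFC of the 9 cytosolic members and of the 10 ER chaperones in ageing, adult DH and aged DH. Each point is 1 gene, filled where the adjusted p over all genes was under 0.05, and the bar is the median of the list. In adult DH 8 of 10 ER genes are filled, against 3 of 9 cytosolic genes.

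Among single animals, adult DH rat 2 had the largest deviation in the cytosolic chaperones. It was the highest of its 5 rats for 9 of 9 members, where any of the 5 rats was the highest for 18.2% to 21.7% of all genes. Its median difference from the mean of the other 4 rats was 0.20 on the log2 scale over the members and 0.00 over all genes. The members farthest above the others were Hspb1 (65.8%), Hspa1a (58.3%), Dnajb1 (22.6%) and Hsph1 (20.7%), which are heat-inducible, and Hspa4 was the nearest to them (3.01%). The value for Hspa1a rests on few reads. Rat 2 had 19 reads, as did rat 3, and rat 4 had 17, while rats 1 and 5 had 8 and 7. For Hspb1, rat 2 had 675.5 normalised counts against 240.8 to 545.5, so the low rat 5 widens its distance from the mean. The constantly expressed Hspa8 was 15.0% above the other rats, and Hsp90aa1 was also 15.0% above them. The punch of this rat stood apart in tissue markers as well. Its summed level of the cortical and amygdalar excitatory list was 1105 normalised counts against 2345 to 2799 in the other 4 rats, with Slc17a7 at 432.1 against 1384 to 1690, and its blood sum was the highest of the group, at 16065 against 6740 to 12794. The part of these in its chaperone values was not tested.

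The same rat was also high for many of the further heat shock targets. It was the highest of its group for 14 of the 20 genes of that list, which shares no gene with the members. Of 20 cochaperones it was the highest for 10, and of 6 further small heat shock genes for 0. Of 12 further J-domain genes it was the highest for 3 and the lowest for 4. Its values were above those of every other rat of the group for Fkbp4 (5890 against 4708 to 5184 normalised counts), Stip1 (8171 against 6688 to 7048), Bag3 (1137 against 840.8 to 1013), Chordc1 (1950 against 1640 to 1741), Serpinh1 (3018 against 2154 to 2659) and Dnaja4 (2559 against 2188 to 2225). Stip1 and Fkbp4 are Hsp90 cochaperones and Bag3 and Chordc1 are well-known targets of Hsf1. Hsf1 itself was 1035 against 912.6 to 1007. Lists outside the heat shock genes differed in rat 2 too. Of 14 immediate-early genes 12 were above the mean of the other rats, with a median difference of 0.15, beside 0.42 in rat 3. Of 15 clock genes 4 were above that mean and 6 were the lowest of the group, with a median difference of -0.10.

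The order opposite to that of the heat shock targets was seen for 4 RNA-binding genes linked to temperature. Of these, Cirbp and Rbm3 are raised by cold. Rat 2 was the lowest of its group in all 4. Rbm3 was 1531 normalised counts against 1602 to 2212 in the other rats, Cirbp 1273 against 1313 to 1462, Rbmx 1253 against 1345 to 1436 and Srsf5 7636 against 8182 to 8932. For the 10 ER chaperones rat 2 was the highest in 0 genes and the lowest in 2, and its median difference was -0.03. These genes and this rat were singled out after their values were seen. What set this rat apart from the others was not tested.

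**Figure D4:**
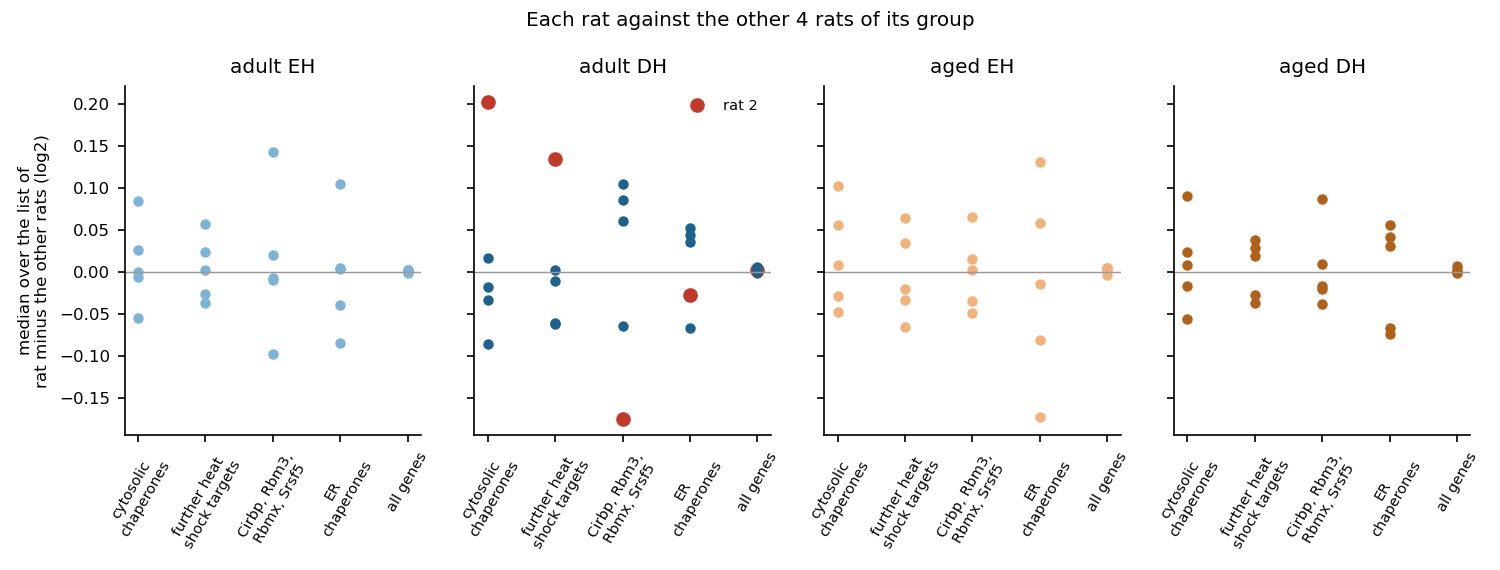
Each of the 20 rats against the other 4 rats of its group, as the median over a list of the difference in log2(normalised count + 1), for the cytosolic members, the further heat shock targets, the 4 temperature-linked RNA-binding genes, the ER chaperones and all genes. Each point is 1 rat, and adult DH rat 2 is marked. It lies at 0.20 for the members, 0.13 for the further targets, -0.18 for the RNA-binding genes, -0.03 for the ER chaperones and 0.00 for all genes.

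No other rat was the highest of its group for more than 6 members. In aged DH, rat 6 was the highest for 6 of 9 members, with a median difference of 0.09, and for 22.4% of all genes. In aged EH, rat 4 was the highest for 4 and the lowest for 3. In adult EH, rat 2 was above the mean of the others for 9 of 9 members, with a median difference of 0.08, and its excitatory sum of 1176 was the lowest of that group, where the others had 1427 to 3679. Rat 4 of that group was the lowest for 7 of 9 members, with a median difference of -0.05, and it was above the mean of the others for all 4 of the RNA-binding genes. Beside the group comparison of these genes, Cirbp stood at -0.18 in adult DH (limma adjusted p = 0.0677) and fell by 0.17 in aged DH (-0.26 to -0.07, limma adjusted p = 0.0336), and Srsf5 fell by 0.24 in aged DH (limma adjusted p = 0.00191). Rbm3 stood at -0.10 in adult DH (-0.32 to 0.12) and -0.15 in aged DH (-0.28 to -0.01, limma adjusted p = 0.185), and at 0.10 in ageing. The temperature of the animals is not among the values analysed here, and no cause of the differences between rats was tested.

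The lists for hormones, neuronal activity and the clock are given beside the chaperone values, and no link between them was tested. Of 10 glucocorticoid-responsive genes, Fkbp5 among them, 8 were higher in adult DH and 1 in aged DH, and of 14 immediate-early genes 6 and 2. Of all genes tested, 7.67% were called as higher in adult DH and 4.05% in aged DH. In the difference between the ages, 0 of the 10 and 0 of the 14 were called by limma, so neither list was shown to respond differently. The transcription factor gene Fosl1 rose by 3.40 on the log2 scale in adult DH (limma adjusted p = 4.87e-07) and by 1.88 in aged DH (limma adjusted p = 0.00017). Avp rose by 0.48 in adult DH (limma adjusted p = 0.0221) and stood at 0.21 in aged DH (-0.13 to 0.56), and Oxt stood at 0.17 and 0.14. Of 15 clock genes 9 were called in adult DH, 3 of them higher and 6 lower, and 4 lower in aged DH. The shares called over all genes were 12.7% and 7.29%, and 0 of the 15 were called in the difference between the ages.

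The spread between rats differed widely among the members. Their median residual SD was 0.0798 in adult DH, 0.0762 in aged DH and 0.073 in ageing on the log2 scale, beside medians of 0.106, 0.112 and 0.11 over all genes. In adult DH it ran from 0.0322 for Hspa4 and 0.0445 for Hsp90ab1 to 0.150 for Dnajb1, 0.441 for Hspb1 and 0.520 for Hspa1a. The precision for Hspa1a and Hspb1 is correspondingly low, as their intervals show.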

How the data were processed

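Bulk RNA-seq of SON punches from 20 male rats was analysed from the authors' 3 deposited tables, 1 per comparison. The authors made poly(A) libraries with a stranded kit, aligned reads with STAR to Rn6 and counted them with featureCounts (versions not given in the sources used here). Afterwards the authors divided each library by its DESeq2 size factor, separately for every table, so the deposited signal is a normalized count. Further deposited columns hold the study's own comparisons by the authors (log2 fold change with its error, Wald score, p-value raw and adjusted) and group or overall means, and none was used.

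Values were tested as log2(normalised count + 1) with limma-trend (limma 3.58.1, R 4.3.3) after a minimum mean of 10, two-sided, without covariates, with p-values adjusted by Benjamini-Hochberg across every tested gene and a threshold of 0.05. The difference between the ages used 1 fit over the 4 groups of both DH tables. Whole reads could be recovered for the adult DH table (100% of values within 0.1 read, 24268398 to 28491926 reads per library), and edgeR 4.0.16 and DESeq2 1.42.0 were run on them as added alternatives, calling 1936 and 2243 genes where limma called 1934. Whole reads were not recovered for the aged libraries. The script was tested on simulated data. Groups came from the labels. Same-numbered rats were checked for pairing: the correlations of their deviations lay between -0.0825 and 0.162, so the numbers were taken as names only. The p-values measure the spread between rats. According to the study's methods, rats were housed in groups and it was cages that were assigned to EH or DH. The labels do not give the cage, so the rats were treated as independent.

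Named genes were the 10 members, Hsf1, Cirbp, Rbm3, Avp and Oxt, and from each list at most 5 called genes (3 for marker lists) per comparison by lowest adjusted p. The members and lists were chosen with earlier results of these data known. Reference promoters are from RefSeq (GRCr8). Figures were drawn with matplotlib.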

Additional observations from a re-analysis of the deposited data

Results flagged for a closer look

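In aged DH rats, Hspa1a reached 30.2 normalised counts in rat 6, while the nearest of the other 4 rats had 17.5. The gap was 0.72 of the range of the group, above the limit of 0.71 for 5 samples. It was the only such value among 36 sets of 5 rats (9 members in 4 groups), where chance alone gives about 5% of sets. Rat 6 was the highest of its group for 6 of the 9 members.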

How the results depend on the processing

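The count of members called was 0 in ageing and 0 in the difference between the ages under every alternative run. In adult DH it was 3, and it lay between 3 and 4 with 1 rat left out. It was 0 when an absolute LFC of at least 0.25 was also asked for. In aged DH it was 2, and it was 1 without the filter on low values, 1 with every library scaled to the same total, 1 with libraries centred on their median, 0 with the fold limit of 0.25 and between 0 and 1 with 1 rat left out.

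The block for replicate number gave 2 members in adult DH (987 genes called against 1934), where Dnaja1 missed the threshold (adjusted p = 0.0762), and 0 in aged DH (653 genes against 1119). The check of pairing found correlations of -0.0825 to 0.162 and the numbers were taken as names. It cannot exclude a shared order or handling of same-numbered rats, so how to read the lost calls is not settled. The block gave an LFC of 0.00709 for Hsph1 in aged DH, against -0.0201. It changed the counts in ageing and in the difference between the ages by 0 members.

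Members near 0 changed sign without being called. In ageing, Hsph1 was 0.00469 with median centring. In adult DH, Hsp90ab1 was -0.0186 and Hsph1 -0.00480 with the same total per library, and Hspa1a was 0.00553 with a pseudocount of 10, 0.0619 with edgeR and 0.0629 with DESeq2. With 1 rat left out, the LFC ran in ageing from -0.0364 to 0.0239 for Hsph1 and from -0.211 to 0.185 for Hspa1a. In adult DH it ran from -0.0508 to 0.0120 for Hsp90aa1, -0.0757 to 0.0386 for Dnajb1, -0.163 to 0.16 for Hspa1a, -0.0154 to 0.0262 for Hsp90ab1, -0.0329 to 0.0550 for Hsph1 and 0.204 to 0.575 for Hspb1. In aged DH it ran from -0.0545 to 0.000994 for Hsph1, and in the difference between the ages from -0.0576 to 0.00741 for Hspa8 and from -0.0760 to 0.0129 for Hsph1. The causes were not tested. Of the members, Hspa1a had the fewest counts, at 5.50 to 30.2 normalised counts in aged rats.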
